A study of Mus musculus with 68 samples.

Results

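Polycomb repressive complex 1 (PRC1) was followed through 10 of its subunit genes, Ring1, Rnf2, Pcgf1, Pcgf2, Pcgf3, Pcgf5, Pcgf6, L3mbtl2, E2f6 and Kdm2b, which were taken by name from the 24421 gene symbols in the deposited expression tables. The 68 RNA-seq libraries came from mouse cells and embryos. Cumulus cells (CC, 3 libraries), the somatic cells that surround the oocyte, were the nuclear donors, and embryos made by somatic cell nuclear transfer (SCNT) into enucleated B6D2F1 oocytes were collected at 6 and 14 h post activation (6 hpa and 14 hpa), at the early and late 2-cell stage (E2C and L2C), the 4-cell stage (4C), the 8-cell stage (8C), the morula and the blastocyst, which was split into inner cell mass (ICM) and trophoblast layer (trophectoderm, TE), with 6 libraries for each stage except 4C, which had 5. The other 12 libraries were ICM and TE of fertilized C57BL/6j blastocysts whose zygotes had received a morpholino (MO, an antisense oligonucleotide that blocks translation or splicing of its target) against Max, an MO against Mcrs1, or a random control MO, with 2 libraries per tissue and treatment. The labels call the control libraries untreated as well as control, and the study describes a higher concentration of control MO than of Max MO and Mcrs1 MO for these libraries, but elsewhere 1 concentration for all. By the labels, 10 blastomeres went into each reaction, none of the SCNT embryos carried an MO, and nothing in the labels says whether libraries of a group came from separate collections, so p-values measure the spread between these libraries.

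PRC1 is an E3 ubiquitin ligase that marks chromatin by adding ubiquitin to histone H2A, and each complex is built on a RING protein, RNF2 (RING1B) or RING1 (RING1A), paired with a single PCGF protein. The PCGF partner sets the type of complex: PCGF2 and its paralog BMI1 sit in canonical PRC1 with CBX and PHC proteins, PCGF1 sits with the CpG-binding protein KDM2B and with BCOR, PCGF3 and PCGF5 form another pair of variant complexes, and PCGF6 sits in PRC1.6 with L3MBTL2, E2F6, MGA and MAX. PRC1.6 is known for keeping germ-line and meiotic genes silent in embryonic stem cells, and MAX, its MYC-family dimerization partner, is the target of one of the MOs used here.

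The tables held length-scaled transcript levels (TPM) and no read counts. Aligned sequence per library, estimated from the ratio of read coverage to FPKM (another length-scaled level), ranged from 1.00 to 5.17 gigabases. CC libraries summed 1592 to 2307 TPM over 10 cumulus markers and at most 2.32 TPM over 7 oocyte markers. At 6 hpa the cumulus markers summed 7.39 to 15.9 TPM and the oocyte markers 4295 to 8448 TPM. Differences from CC to 6 hpa thus compare donor cells with embryos that hold oocyte RNA. For a given gene, RNA stored in the oocyte and RNA from the transferred nucleus cannot be told apart in the first stages. By the study's methods, RNA with a poly(A) tail was captured, so levels here are of polyadenylated RNA and not of all RNA of a gene. TE markers did not separate SCNT ICM from TE in every library: over 8 markers they summed 2196 to 8845 TPM in ICM, with libraries 1, 4 and 5 at 6086, 6912 and 8845, and 6161 to 17280 TPM in TE, with libraries 1 and 3 at 6161 and 6902. The ICM markers overlapped less, at 231 to 786 TPM in ICM and 88.3 to 353 TPM in TE. SCNT ICM libraries numbered 1 to 3 detected 6177 to 6771 genes at 1 TPM or more, against 9011 to 10032 in those numbered 4 to 6. The control ICM library numbered 1 went against its label in part: its 8 TE markers summed 17189 TPM and Cdx2, a TE transcription factor, reached 57.7 TPM, against 645 TPM and 0.222 TPM in control ICM library 2 and 20278 to 22074 TPM in control TE. Its ICM markers were nevertheless high, with Nanog at 561 TPM. Mcrs1 MO ICM library 1 was also mixed, with ICM markers at 438 TPM, below the 452 and 581 TPM of Mcrs1 MO TE. Its TE markers summed 12420 TPM, with Cdx2 at 28.6 TPM. Values without control ICM library 1 are given beside the member results that use control ICM. Such fits keep a control with 645 TPM of TE markers. Max MO ICM held 2927 to 6276 TPM of them and Mcrs1 MO ICM 8783 to 12420 TPM. Those fits hold 1 control ICM library, so their p-values take the spread from the other groups and say nothing about spread within control ICM. In bulk samples, a lower share of cells of a type and less RNA per cell cannot be told apart.

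On mm10, the annotation placed Ring1 at chr17:34020792-34024680, Rnf2 at chr1:151469406-151500823, Pcgf2 at chr11:97688823-97700497, Pcgf6 at chr19:47033619-47050845 and Kdm2b at chr5:122870675-122989099 on the minus strand. Pcgf1 at chr6:83078390-83080855, Pcgf3 at chr5:108461332-108503099, Pcgf5 at chr19:36379067-36456204, L3mbtl2 at chr15:81663889-81688315 and E2f6 at chr12:16810965-16826752 lay on the plus strand. The 3′ end of L3mbtl2 overlapped Chadl (chr15:81686167-81697287), a gene on the opposite strand, and reads of the pair could not be separated without strand information. Mean Chadl levels were between 0.0127 and 3.72 TPM over the 16 groups.

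Levels below are TPM, which is scaled for transcript length and can be compared between genes, and differences are on the scale of log2(TPM + 1), fitted with limma over all genes with a mean of at least 1 TPM. A gene passed the threshold at a Benjamini-Hochberg adjusted p under 0.05 and at least 2-fold. Because of the added 1 TPM, folds of genes at a few TPM are understated. Ring1 and Pcgf2 fell under the filter in the SCNT series, which left 8 of the 10 members tested there. All 10 were tested in the MO experiment.

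**Figure D1:**
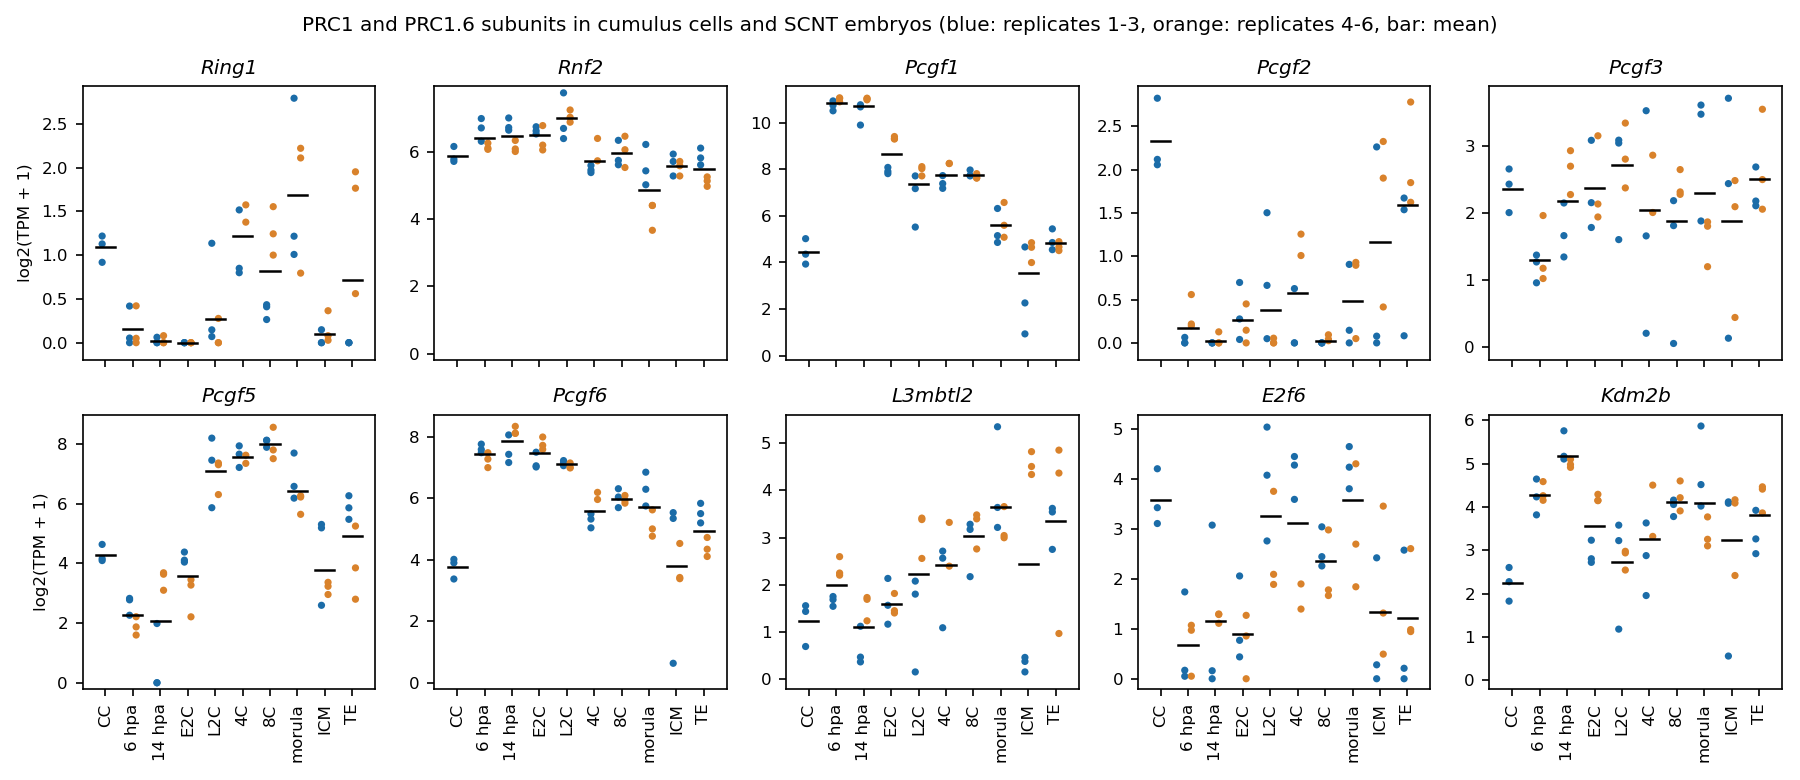
Levels of the 10 subunit genes as log2(TPM + 1) on the y axis in CC and 9 SCNT stages on the x axis, with 1 point per library (blue for libraries numbered 1 to 3, orange for 4 to 6) and a bar at the mean. Pcgf1 stands at 1459 TPM or more in all 6 libraries at 6 hpa, Pcgf5 climbs from E2C to L2C, and Ring1 is at 0 in all 6 E2C libraries.

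Of the RING genes, Rnf2 was the transcript present at every stage and Ring1 was close to the floor. Rnf2, the catalytic subunit, measured 59.5 ± 10.4 TPM in CC (mean ± SD), 87.7 ± 24.0 at 6 hpa, 91.5 ± 25.1 at 14 hpa, 91.7 ± 18.1 at E2C and 135 ± 47.1 at L2C. It then fell to 54.0 ± 17.6 TPM at 4C (log2 fold change -1.29 ± 0.30, adjusted p = 3.73e-04), where the highest 4C library, at 84.5 TPM, reached just past the lowest L2C library, at 84.3 TPM. A further fall came between 8C, at 64.0 ± 17.8, and the morula, at 33.6 ± 22.7 TPM (-1.11 ± 0.28, adjusted p = 0.0055). The fall from 8C to morula rested on the libraries numbered 4 to 6, which held 11.8 to 20.4 TPM in the morula. Fitted alone, libraries 1 to 3, at 31.8 to 74.5 TPM, gave -0.34, adjusted p = 0.655. SCNT ICM and TE held 48.2 ± 8.78 and 46.1 ± 14.7 TPM, and their difference of -0.10 had a 95% interval of -0.67 to 0.47.

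Ring1 was at 0.889 to 1.32 TPM in CC, was listed at 0 in 2 libraries at 6 hpa and 4 at 14 hpa, and was listed at 0 in all 6 at E2C. It was at 0.740 to 1.98 TPM in all 5 libraries at 4C, 0.201 to 1.93 TPM at 8C and 0.734 to 5.92 TPM in the morula, and was no higher than 0.288 TPM in SCNT ICM. The morula and ICM libraries did not overlap, and with no filter on low values the difference was -1.59 ± 0.28, adjusted p = 4.21e-05. As a share of the summed Ring1 and Rnf2 level, Rnf2 had a mean of at least 97.4% at every SCNT stage but the morula, where its mean share was 90.4% ± 8.15 (SD, n = 6).

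Pcgf1, the PCGF subunit of the KDM2B-BCOR complex, was by far the most abundant member at 6 and 14 hpa. Its level was 19.5, 14.2 and 31.5 TPM in the 3 CC libraries and 1719, 1459, 1959, 1907, 2105 and 2150.2 TPM in the 6 libraries at 6 hpa. No library of one group came near the other, and the difference was 6.43 ± 0.52, adjusted p = 4.33e-16, an 86.7-fold ratio of means. At 14 hpa the libraries held 955, 1640.3, 1747, 2023, 2089 and 2127 TPM, with library 1 low. At E2C they held 224, 269.8, 239, 639, 678 and 629 TPM: all 6 were below every 14 hpa library (-2.10 ± 0.42, adjusted p = 6.52e-04), and libraries 4 to 6 were well above libraries 1 to 3. L2C, with 44.9, 209, 143, 260.3, 276 and 209 TPM, was lower again (-1.26 ± 0.42, adjusted p = 0.0149). Without L2C library 1, which also had the lowest share of TPM on annotated genes in the series (30.4%), that fall gave -0.89 with an adjusted p of 0.0859. It was also lost in libraries 1 to 3 alone (-1.13, adjusted p = 0.2) and, at -0.92, went under 2-fold with TPM rescaled over annotated genes. 4C (226 ± 75.1 TPM) and 8C (215 ± 20.1 TPM) differed by -0.01, with a 95% interval of -0.90 to 0.88. The morula libraries, at 28.0, 34.5, 78.7, 32.9, 47.3 and 94.4 TPM, lay entirely below the 8C libraries (-2.15 ± 0.42, adjusted p = 2.75e-04), and SCNT ICM, at 0.906, 3.79, 24.4, 24.1, 27.8 and 14.9 TPM, lay entirely below the morula (-2.04 ± 0.42, adjusted p = 2.16e-04). Without SCNT ICM libraries 1 to 3, the last difference was -1.10, adjusted p = 0.0409.

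Kdm2b, whose product brings that complex to unmethylated CpG islands, had a smaller peak at the same time. It measured 3.84, 5.07 and 2.54 TPM in CC and 24.0, 13.1, 17.8, 18.2, 16.8 and 23.0 TPM at 6 hpa, a rise of 2.05 ± 0.56, adjusted p = 0.00125, and 53.2, 35.0, 33.5, 29.2, 33.3 and 30.6 TPM at 14 hpa. The 14 hpa libraries all stood above the 6 hpa libraries, but the difference of 0.89 ± 0.46, adjusted p = 0.246, missed the threshold. At E2C Kdm2b was at 8.39, 5.59, 5.98, 16.8, 16.7 and 18.6 TPM, below every 14 hpa library (-1.61 ± 0.46, adjusted p = 0.0223). Libraries 1 to 3 and 4 to 6 of E2C did not overlap, and the fall was -2.43, adjusted p = 0.0324, in the first set and -0.80, adjusted p = 0.218, in the second. With 0.1 TPM added in place of 1 the fall over all libraries had an adjusted p of 0.0571. From L2C on, no step between neighbouring stages passed the threshold, and SCNT levels were between 0.469 TPM in ICM library 2 and 57.5 TPM in morula library 2. The peaks of Pcgf1 and Kdm2b were of different size: at 14 hpa their means were 1763 and 35.8 TPM.

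Pcgf5 ran opposite to Pcgf1 in the early stages. This PCGF subunit of the variant complexes known for work on the inactive X chromosome stood at 23.8, 16.9 and 16.1 TPM in CC and 6.09, 3.80, 5.86, 3.63, 2.03 and 2.66 TPM at 6 hpa, lower in all 6 embryo libraries than in CC (-2.04 ± 0.65, adjusted p = 0.00545). At 14 hpa the libraries were uneven, with 0, 0, 2.96, 7.57, 11.4 and 11.9 TPM, and E2C held 15.5, 19.8, 16.2, 9.96, 3.62 and 8.66 TPM (1.51 ± 0.54, adjusted p = 0.0833, not past the threshold). In libraries 1 to 3 alone, which hold both zeros, it passed (3.51, adjusted p = 5.14e-04). At L2C, the time of major zygotic genome activation in the mouse, Pcgf5 was at 57.2, 292, 175, 163, 78.1 and 157 TPM. The lowest of these was above the highest E2C library, and the rise of 3.50 ± 0.54, adjusted p = 6.55e-07, was the largest of any member between neighbouring embryo stages, with a 12.5-fold ratio of means. It held in libraries 1 to 3 alone (3.0, adjusted p = 0.00125) and in 4 to 6 alone (4.01, adjusted p = 1.05e-07). Pcgf5 then stood at 190.1 ± 37.6 TPM at 4C and 262 ± 66.9 at 8C. It fell to 95.2 ± 56.3 in the morula (-1.57 ± 0.54, adjusted p = 0.0438), to 17.2 ± 15.4 in SCNT ICM (-2.66 ± 0.54, adjusted p = 1.55e-04) and to 38.8 ± 26.3 TPM in SCNT TE (-1.51 ± 0.54, adjusted p = 0.0331). The falls to morula and TE did not pass in libraries 1 to 3 alone (-1.22, adjusted p = 0.266, and -0.95, adjusted p = 0.338), while the fall to ICM passed in each set. With TPM rescaled over annotated genes they were -1.68 (adjusted p = 0.0504) and -1.49 (adjusted p = 0.0577), and with 0.1 TPM added in place of 1 their adjusted p were 0.189 and 0.148.

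Pcgf3, the other gene of this pair of variant complexes, stayed low throughout CC and the SCNT stages. Group means over CC and the SCNT stages ran from 1.52 TPM at 6 hpa to 6.05 TPM at L2C, single libraries from 0.0358 to 12.2 TPM, and no step passed the threshold. Pcgf2, a canonical PRC1 subunit also called Mel18, was at 3.35, 6.09 and 3.16 TPM in CC and at most 0.473 TPM at 6 hpa, and it was listed at 0 in 5 of 6 libraries at 14 hpa and 3 of 6 at 8C. It was at 0 to 4.02 TPM in SCNT ICM and 0.0588 to 5.88 TPM in SCNT TE. With no filter on low values, Pcgf2 was lower at 6 hpa than in CC (-2.16 ± 0.40, adjusted p = 1.19e-05) and higher in SCNT TE than in the morula (1.10 ± 0.33, adjusted p = 0.0185). In 8C libraries 1 and 2, where Pcgf2 was listed at 0, an assembled locus without a gene name overlapped the gene at 23.6 and 5.82 TPM, so a listed 0 is not evidence of absence there.

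Among the PRC1.6 genes, Pcgf6 was abundant before genome activation, while L3mbtl2 and E2f6 were not. Pcgf6, which defines the complex, rose from 15.2, 9.37 and 13.9 TPM in CC to 179, 192, 217, 178, 127 and 154 TPM at 6 hpa (3.67 ± 0.51, adjusted p = 1.11e-08), with no overlap and a 13.6-fold ratio of means. It was between 126 and 324 TPM in every library from 14 hpa to L2C. L2C libraries, at 126 to 149 TPM, were closely grouped and lay above all 4C libraries, at 31.9 to 72.3 TPM (-1.50 ± 0.44, adjusted p = 0.00498). That fall was -1.87, adjusted p = 0.0617, in libraries 1 to 3 and -0.97, adjusted p = 0.00605, in libraries 4 to 6, the latter just under 2-fold. 8C held 63.0 ± 9.62 and the morula 58.5 ± 33.0 TPM. SCNT ICM was lower than morula (-1.91 ± 0.42, adjusted p = 4.80e-04), with libraries at 0.546, 45.4, 39.7, 22.1, 9.73 and 9.44 TPM, of which library 1 was close to 0. Fitted on those 2 groups alone, it was -1.91 with an adjusted p of 0.0695.

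L3mbtl2, an MBT-domain protein of PRC1.6, was at 3.15 ± 1.2 TPM at 6 hpa, 7.62 ± 2.52 at 8C and 14.2 ± 12.6 in the morula, and no single step passed the threshold. In SCNT ICM its libraries split: numbers 1 to 3 held 0.114, 0.378 and 0.30 TPM and numbers 4 to 6 held 27.2, 21.7 and 19.2 TPM, with none between. The difference from morula was -3.73, adjusted p = 4.30e-05, in libraries 1 to 3 and 1.32, adjusted p = 0.0956, in libraries 4 to 6, and over all libraries -1.21 ± 0.62, adjusted p = 0.15. E2f6, a repressive E2F family member, was at 9.72, 7.60 and 17.4 TPM in CC and 2.33, 0.0350, 0.124, 0.0358, 0.959 and 1.10 TPM at 6 hpa (-2.90 ± 0.72, adjusted p = 3.99e-04). It rose at L2C to 5.76, 15.8, 31.8, 12.4, 3.25 and 2.70 TPM from 0 to 3.16 TPM at E2C (2.37 ± 0.59, adjusted p = 0.00107), with overlap of the 2 groups at their edges. After a morula level of 13.6 ± 8.24 TPM it was lower in ICM, at 0 to 9.95 (-2.26 ± 0.59, adjusted p = 0.00302), and TE, at 0 to 5.07 TPM (-2.37 ± 0.59, adjusted p = 0.00194). Neither of these falls passed in libraries 4 to 6 alone (-1.19, adjusted p = 0.196, and -1.43, adjusted p = 0.113), and the fall to ICM gave -1.83, adjusted p = 0.0601, without SCNT ICM libraries 1 to 3.

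Taking the 5 Pcgf members with their paralog Bmi1 (Pcgf4), the makeup of the Pcgf transcript pool turned over between activation and the 8-cell stage. Pcgf1 held 79.1% ± 6.86 of the summed TPM at 6 hpa (mean ± SD, n = 6), 41.2% ± 17.0 at E2C and 17.5% ± 8.57 at L2C. Bmi1 held 13.2% ± 5.84, 39.7% ± 18.5 and 55.7% ± 9.72 at those stages, and 1.78% ± 1.44 at 8C. Pcgf5 went from 0.169% ± 0.0659 at 6 hpa to 13.5% ± 5.57 at L2C and 46.8% ± 6.58 at 8C, where Pcgf1 held 39.3% ± 4.71. Pcgf6 had 7.41% ± 1.59 at 6 hpa, 9.12% ± 2.28 at 4C and 27.2% ± 12.7 in the morula. The sum over the 6 genes averaged 2376 TPM at 6 hpa, 2325 at 14 hpa, 1047 at E2C, 1092 at L2C, 537 at 4C, 553 at 8C, 218 in the morula, 73.1 in SCNT ICM and 119 in SCNT TE. Annotated genes held 30.4% to 61.8% of assembled TPM at L2C and 87.1% to 89.7% in the morula. The summed levels of different stages are therefore not on the same base. Shares in single SCNT ICM libraries were widely spread, with Pcgf1 between 1.27% and 53.1%.

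**Figure D2:**
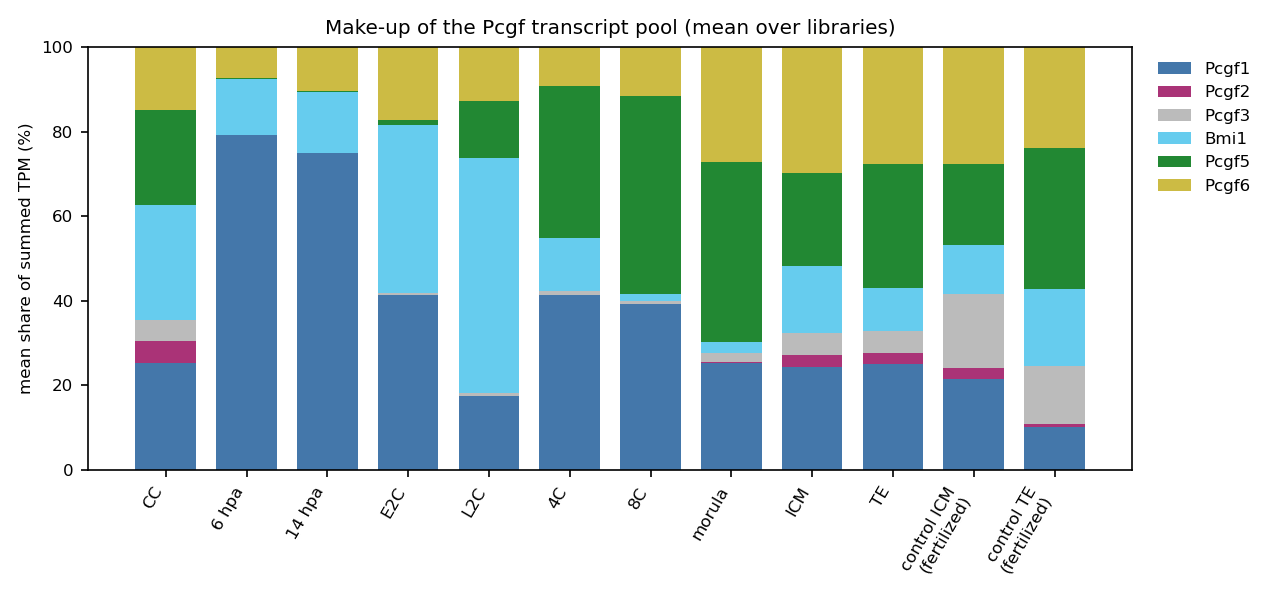
Mean share (%, y axis) of each of the 5 Pcgf members and Bmi1 in their summed TPM, for CC, the 9 SCNT stages and the control ICM and TE of fertilized blastocysts (x axis). Pcgf1 makes up 79.1% at 6 hpa and 39.3% at 8C, Bmi1 55.7% at L2C and 1.78% at 8C, and Pcgf5 0.169% at 6 hpa and 46.8% at 8C.

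Counts of members past the threshold are given beside the share of all tested genes that passed in the same step. From CC to 6 hpa, 5 of 8 tested members passed (Pcgf1, Pcgf6 and Kdm2b higher, Pcgf5 and E2f6 lower), where 61.4% of 12084 genes did. From 6 to 14 hpa no member passed, against 11.1% of 11867 genes. 2 fell from 14 hpa to E2C (Pcgf1 and Kdm2b) against 5.83% of genes in either direction and 3.05% lower. From E2C to L2C 3 passed (Pcgf5 and E2f6 higher, Pcgf1 lower) against 34.9%, and 2 fell from L2C to 4C (Rnf2 and Pcgf6) against 38.4% of genes in either direction and 26.6% lower. None passed from 4C to 8C, against 19.8%. From 8C to morula 3 fell (Rnf2, Pcgf1 and Pcgf5), against 12.2% of genes in either direction and 3.48% lower. From morula to SCNT ICM 4 fell (Pcgf1, Pcgf5, Pcgf6 and E2f6) against 24% of genes in either direction and 15% lower, with a median over the 8 members of -1.56 beside -0.16 over all genes, and from morula to SCNT TE 2 fell (Pcgf5 and E2f6) against 21.8% of genes in either direction and 10.8% lower.

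**Figure D3:**
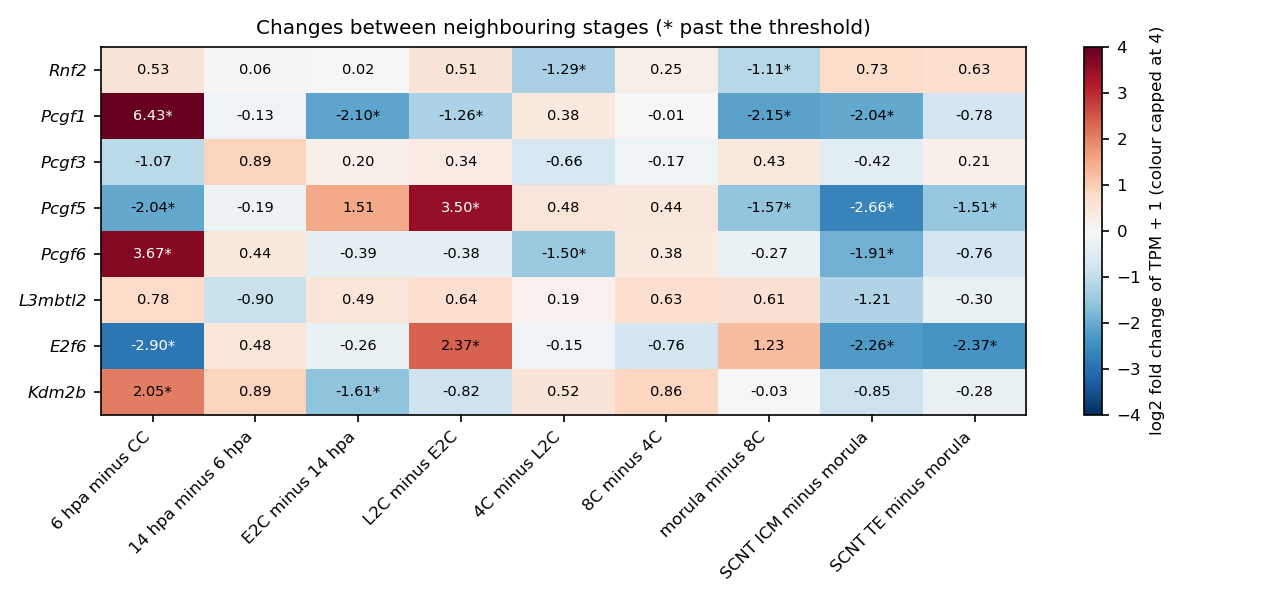
Log2 fold changes of TPM + 1 for the 8 tested members (rows) over 9 steps between neighbouring stages (columns), blue for lower and red for higher in the later stage, with an asterisk on those past the threshold. Pcgf1 carries 5 of the 21 asterisks, a rise of 6.43 from CC to 6 hpa followed by 4 falls.

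A list of 27 further PRC1 genes, of which 22 were tested, gave the surroundings. From 6 to 14 hpa, Max rose (1.73) and Yaf2 (-1.91) and Tfdp1 (-1.88) fell, for a median of -0.01 over the list and 0.01 over all genes. None passed from 14 hpa to E2C. At L2C, 3 rose, Cbx3 (3.58), Hdac1 (2.15) and Mga (1.58), the DNA-binding partner of MAX in PRC1.6, and 2 fell, Max (-1.32) and Cbx1 (-1.15). From L2C to 4C, 7 of 22 fell and 1 rose, led by the canonical subunit genes Bmi1 (-3.40), Scmh1 (-2.89) and Phc2 (-2.79) and by Tfdp1 (-2.46), the E2F dimerization partner. The list's median there was -0.64, beside -0.33 over all genes. From 4C to 8C, Bmi1 (-2.74) and Yaf2 (-2.53) fell and Wdr5 (1.6) rose, the last a call lost in 9 of 17 alternatives. In the morula Cbx3 (-1.45) fell. From morula to SCNT ICM, Tfdp1 (-1.45) and Rybp (-1.01) fell and Cbx3 (1.43) and Usp7 (1.25) rose. From morula to SCNT TE, Wdr5 (-1.62), Hdac1 (-1.56) and Bcor (-1.19) fell and Usp7 (1.12) rose. From CC to 6 hpa 6 rose and 4 fell, with the largest values for Cbx3 (-4.78), Bmi1 (3.62), Hdac1 (-3.55) and Tfdp1 (3.37).

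SCNT TE and ICM were compared directly, and no member passed the threshold, where 5.34% of genes did. Pcgf1 came nearest, at 27.9, 42.5, 22.4, 21.8, 28.7 and 24.4 TPM in TE against 0.906, 3.79, 24.4, 24.1, 27.8 and 14.9 TPM in ICM (1.26 ± 0.42, adjusted p = 0.0674). Same-numbered TE and ICM libraries deviated together in every pair (r from 0.131 to 0.30 over genes). Only 2 of the 6 TE libraries deviated most like the ICM library of their own number, so pairing by number is not established. With the replicate number as a block Pcgf1 passed (1.26, adjusted p = 0.0248). The difference lay in libraries 1 to 3, of which ICM had few genes detected: it was 2.33, adjusted p = 0.0167, in them alone, 0.19, adjusted p = 0.741, in libraries 4 to 6 alone and 0.32, adjusted p = 0.788, without SCNT ICM libraries 1 to 3. Pcgf6 gave 1.15 ± 0.42, adjusted p = 0.103, in the full fit and 1.17, adjusted p = 0.0378, without them. L3mbtl2 gave 0.91 ± 0.62, adjusted p = 0.493, with TE at 11.3, 10.7, 5.73, 0.958, 19.6 and 27.9 TPM, and its direction turned with the libraries. In libraries 1 to 3 alone it was 2.97, adjusted p = 0.00158, in libraries 4 to 6 alone -1.16, adjusted p = 0.251, and without SCNT ICM libraries 1 to 3 -1.2, adjusted p = 0.251. The part of TE markers in the ICM libraries, 2196 to 8845 TPM, in these results and in those from morula to ICM was not tested. Of the other list, Auts2 was higher in TE (1.24), a call lost in 5 of 18 alternatives.

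The MO experiment asked what lowering Max, a PRC1.6 subunit, or Mcrs1, a subunit of the INO80 and NSL chromatin complexes, does to fertilized blastocysts. An MO acts on translation or splicing and need not lower its target's RNA. Mcrs1 was nevertheless lower under its own MO, at 86.8 and 73.4 TPM in ICM against 253 and 310.1 in control ICM (-1.80 ± 0.21, adjusted p = 0.00333, or -1.94 ± 0.24, adjusted p = 3.86e-04, without control ICM library 1) and at 41.1 and 45.5 TPM in TE against 219 and 294 in control TE (-2.53 ± 0.21, adjusted p = 8.68e-04). Max was at 6.82 and 0.443 TPM in Max MO ICM against 38.0 and 8.42 TPM in control ICM (-2.51 ± 0.80, adjusted p = 0.0397), and without control ICM library 1 the difference was -1.49 ± 0.81, adjusted p = 0.177. That call was lost in 13 of 20 alternatives. In TE, Max was at 16.3 and 8.68 TPM under its MO against 34.5 and 28.5 TPM (-1.32 ± 0.80, adjusted p = 0.39). Under the Mcrs1 MO, Max was at 17.6 and 15.7 TPM in TE (-0.88 ± 0.80, adjusted p = 0.543), which missed the threshold.

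Kdm2b was the member that fell in all 4 comparisons with control. In ICM it was at 73.6 and 98.6 TPM in control, 24.9 and 21.5 with Max MO and 28.4 and 30.8 with Mcrs1 MO, and in TE at 47.3 and 63.4 TPM in control, 17.9 and 21.6 with Max MO and 21.5 and 16.9 with Mcrs1 MO. Both control libraries stood above all 4 MO libraries in each tissue. The differences were -1.83 ± 0.30, adjusted p = 0.00236 (Max MO, ICM), -1.43 ± 0.30, adjusted p = 0.0393 (Max MO, TE), -1.49 ± 0.30, adjusted p = 0.0144 (Mcrs1 MO, ICM) and -1.47 ± 0.30, adjusted p = 0.0223 (Mcrs1 MO, TE). The 2 MOs share their control libraries, so these are not independent, and medians over all genes were also below 0 (-0.21, -0.19, -0.05 and -0.24). Without control ICM library 1, Kdm2b gave -2.04 ± 0.34, adjusted p = 0.00173, with Max MO and -1.70 ± 0.34, adjusted p = 0.00551, with Mcrs1 MO in ICM. The calls were less firm than the sizes: in the Max MO TE comparison, leaving out 1 of the 12 libraries in turn kept Kdm2b between -1.64 and -1.22, but its adjusted p was above 0.05 in 10 of 12 cases. Fitted on the 2 compared groups alone, the ICM differences of -1.83 and -1.49 had adjusted p of 0.082 and 0.194. With quantile normalization both TE differences missed the threshold (-1.26 with an adjusted p of 0.0665, and -1.22 with 0.0544).

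**Figure D4:**
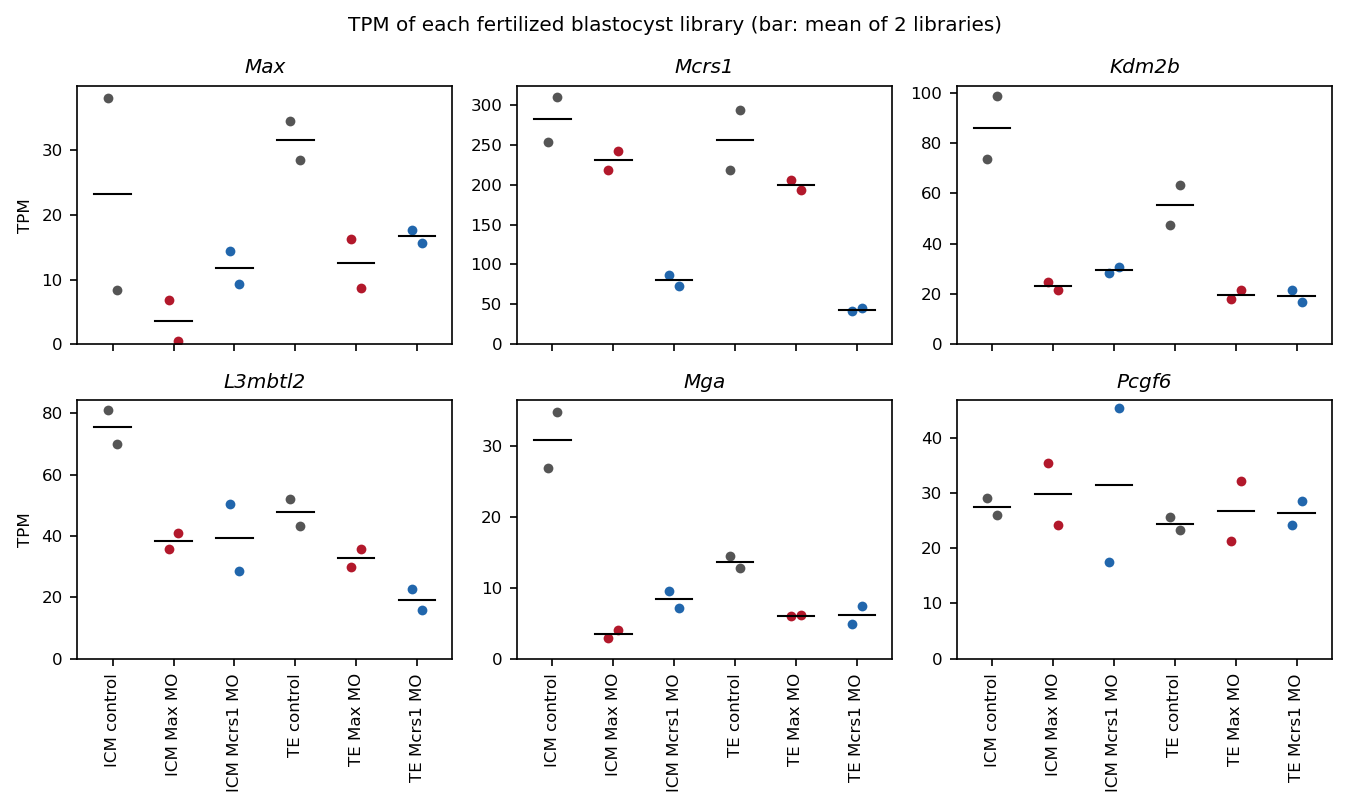
TPM (y axis, from 0) of the targets Max and Mcrs1, of Kdm2b, L3mbtl2, Mga and Pcgf6 in each fertilized blastocyst library, by tissue and treatment (x axis), with a bar at the mean of 2 libraries. Kdm2b lies at 47.3 TPM or more in the 4 control libraries and at 30.8 TPM or less in the 8 MO libraries, while mean Pcgf6 stays between 24.4 and 31.5 TPM in the 6 groups.

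L3mbtl2 was also at lower values in the MO libraries, and its difference passed the threshold in 1 of the 4 comparisons. Control ICM held 81.0 and 70.0 TPM, Max MO ICM 35.9 and 40.9 and Mcrs1 MO ICM 50.4 and 28.5 TPM, with no overlap between control and either MO. These differences, at -0.96 ± 0.33, adjusted p = 0.0524, and -0.97 ± 0.33, adjusted p = 0.0767, missed the threshold. Without control ICM library 1 they were -0.85 ± 0.39 and -0.87 ± 0.39. With TPM rescaled over annotated genes the Max MO difference in ICM passed, at -1.08, in 1 of its 20 alternatives. In TE, control libraries held 52.1 and 43.2 TPM, Max MO 29.9 and 35.6 (-0.53 ± 0.33, adjusted p = 0.408) and Mcrs1 MO 22.7 and 15.7 TPM. The Mcrs1 MO difference in TE, -1.29 ± 0.33, adjusted p = 0.0448, passed. It did not pass when leaving out a library in 8 of 12 cases, nor with quantile normalization (-1.0, adjusted p = 0.113) or without the filter on low values (adjusted p = 0.0665).

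The other 8 members did not pass in any MO comparison with all libraries. Pcgf6 held 29.1 and 25.9 TPM in control ICM, 35.3 and 24.3 with Max MO and 17.6 and 45.4 with Mcrs1 MO, and its 95% intervals were -0.86 to 1.04 (Max MO, ICM), -0.85 to 1.05 (Max MO, TE), -0.91 to 1.00 (Mcrs1 MO, ICM) and -0.85 to 1.05 (Mcrs1 MO, TE). Without control ICM library 1 its ICM differences were 0.17 ± 0.51, adjusted p = 0.819, with Max MO and 0.12 ± 0.51, adjusted p = 0.876, with Mcrs1 MO. Rnf2 was at 96.0 and 56.9 TPM in control ICM and 56.6 and 46.3 with Max MO (-0.52 ± 0.28, adjusted p = 0.186), and at 109.6 and 90.7 TPM with Mcrs1 MO (0.43 ± 0.28, adjusted p = 0.331). Without control ICM library 1 these were -0.15 ± 0.26, adjusted p = 0.679, and 0.80 ± 0.26, adjusted p = 0.0432, the latter under 2-fold. The direct difference between Max MO and Mcrs1 MO in ICM was -0.95 ± 0.28, adjusted p = 0.1. Pcgf1 in ICM was at 17.7 and 27.0 TPM in control, 8.14 and 13.0 with Max MO (-1.01 ± 0.52, adjusted p = 0.171) and 6.37 and 9.82 with Mcrs1 MO (-1.36 ± 0.52, adjusted p = 0.112), and without library 1 the differences were -1.30 ± 0.60, adjusted p = 0.114, and -1.65 ± 0.60, adjusted p = 0.0665. The sizes of the E2f6 and Pcgf3 differences in ICM depended on control ICM library 1. E2f6 was at 9.20 and 0.140 TPM in the control libraries. Its difference with Max MO was 1.31 ± 0.94, adjusted p = 0.323, with both and 2.89 without library 1. With Mcrs1 MO it was 1.69 ± 0.94, adjusted p = 0.257, and 3.27. The values without library 1 rest on the single control value of 0.140 TPM. Pcgf3 was at 6.99 and 31.7 TPM in the controls. It gave -1.25 ± 0.76, adjusted p = 0.244, with both and -2.27 without library 1. With Mcrs1 MO it gave -0.78 ± 0.76, adjusted p = 0.53, and -1.80. Ring1 also depended on the control libraries, at 5.95 and 0.580 TPM in control ICM. Its Max MO difference in ICM was -0.98 ± 0.74, adjusted p = 0.355, with both, and ran from -2.05 to 0.09 over the alternatives. In ICM, E2f6 passed in 1 of 20 alternatives with each MO, Pcgf3 in 1 of 20 with Max MO and Ring1 in 1 of 19 with Max MO. Pcgf2 and Pcgf5 passed under no alternative in either ICM comparison. Ring1 was at most 5.95 TPM in any of the 12 libraries and Pcgf2 at most 3.47 TPM.

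**Figure D5:**
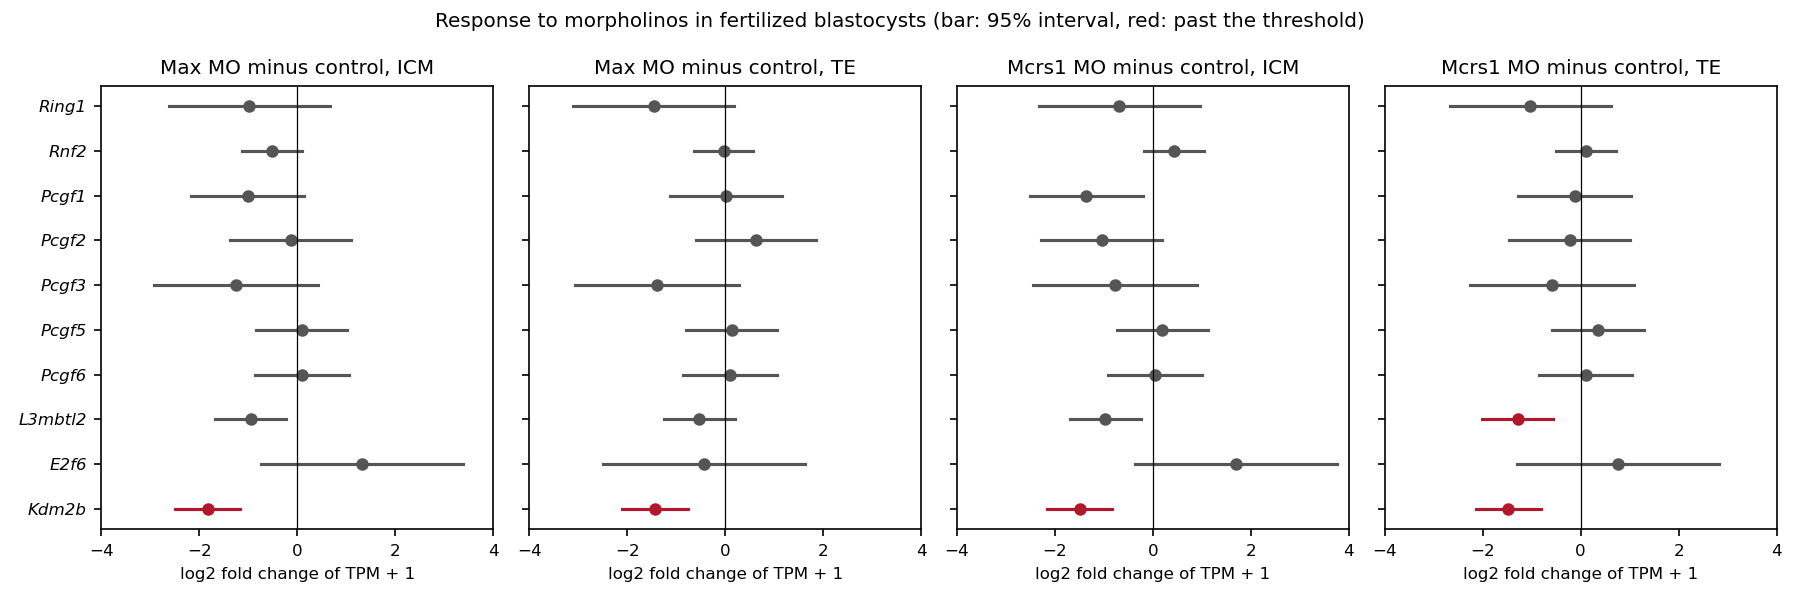
Log2 fold change of TPM + 1 (x axis) with 95% intervals for the 10 members (y axis) in 4 comparisons of MO with control libraries, red where past the threshold. Kdm2b is red in all 4 panels and L3mbtl2 in the Mcrs1 MO TE panel.

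By counts, 1 of 10 members fell with Max MO in ICM against 23.7% of 11219 genes (15.1% lower), 1 with Max MO in TE against 2.5% (1.45% lower), 1 with Mcrs1 MO in ICM against 10.1% (5.21% lower) and 2 with Mcrs1 MO in TE against 5.08% (3.31% lower). Medians over the 10 members were -0.74, -0.23, -0.73 and -0.17. The responses of TE and ICM were not shown to differ for any member. For Kdm2b the difference of responses, TE minus ICM, was 0.40 ± 0.43, adjusted p = 0.728, for Max MO and 0.02 ± 0.43, adjusted p = 0.994, for Mcrs1 MO. Over all genes limma called 0 in either of these tests (0%), with 1473 and 972 genes at an unadjusted p under 0.05. Without control ICM library 1, 507 and 840 of 11146 genes were called in them and still no member, with E2f6 nearest at an adjusted p of 0.0818 for Max MO, and the shares called in ICM were 30.3% with Max MO and 22.4% with Mcrs1 MO. Max MO and Mcrs1 MO did not differ past the threshold for any member, against 1.81% of genes in ICM and 0.0267% in TE. For L3mbtl2 in TE the difference was 0.76 ± 0.33, adjusted p = 0.873. Control TE and control ICM gave no member either, against 2.92%. Rnf2, at 137 and 135 TPM in control TE, gave 0.87 ± 0.28, adjusted p = 0.103, with both control ICM libraries and 1.24 ± 0.26, adjusted p = 0.00679, without library 1.

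Of the 27 other PRC1 genes, 24 were tested in the MO experiment. With Max MO in ICM 4 fell: Fbrs (-2.86), Mga (-2.83), Max itself and Usp7 (-1.37). Without control ICM library 1, Fbrs gave -2.87 ± 0.72, adjusted p = 0.0124, and Usp7 -1.48 ± 0.27, adjusted p = 0.00273. Mga, which pairs with MAX, was at 26.9 and 34.9 TPM in control ICM, 2.97 and 4.00 with Max MO and 9.52 and 7.20 with Mcrs1 MO, without overlap, and gave -3.01 ± 0.50, adjusted p = 0.00186, for Max MO without control ICM library 1. In TE, Mga was at 14.5 and 12.7 TPM in control and 5.97 and 6.10 with Max MO (-1.05 ± 0.43, adjusted p = 0.199), and none of the list passed with Max MO there. With Mcrs1 MO in ICM, Fbrs (-2.98), Mga (-1.77) and Cbx7 (-1.36) fell and Skp1a (1.14) rose, and in TE Cbx7 (-1.80) fell. Without control ICM library 1 the ICM values were Fbrs -2.99, Mga -1.95, Cbx7 -1.52 and Skp1a 1.08, all past the threshold, and Hdac1 passed as well (Hdac1 -1.04). Usp7 was lower with Max MO than with Mcrs1 MO in ICM (-1.29 ± 0.24, adjusted p = 0.032), a call lost in 10 of 20 alternatives. Hdac1 was lower in control TE than in control ICM (-1.23 ± 0.25, adjusted p = 0.0324), a call lost in 13 of 20 alternatives, while without control ICM library 1 it gave -1.63 ± 0.21, adjusted p = 3.84e-04. Libraries also differed in makeup along the treatment: annotated genes held 85.5% to 90.3% of assembled TPM in the 4 control libraries and 93.6% to 94.4% in the 8 MO libraries. ICM marker sums were 1454 to 1927 TPM over the 7 markers in control ICM, 1082 to 1195 with Max MO and 438 to 1011 with Mcrs1 MO, and TE marker sums were 645 to 17189, 2927 to 6276 and 8783 to 12420 TPM. Fits with TPM rescaled over annotated genes were among the alternatives. Beyond these, the part of the differences in makeup and markers in the member results was not tested.

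Promoter sequences in RefSeq (GRCm38.p6; 250 bases before to 50 after a start, 32851 promoters) held 14 promoters of 9 members. Pcgf1 was not in the table. The E-box CACGTG, the motif that MAX dimers are known to bind, reads the same on both strands and was present in 7.15% of all promoters and in 1 of the 14, that of Pcgf2. The E2F-type motif GGCGGGA was searched on both strands and occurred in 11.3% of all promoters and in those of Pcgf2 and Pcgf5, and GCGGGAA, which can overlap it, in 4.6% and in Pcgf5. The Kdm2b promoter at the start of the annotated gene is shown because Kdm2b fell with both MOs, at chr5:122989050-122989349 on the minus strand, with its 28 CG dinucleotides in capitals, where the median promoter has 7. That of Pcgf2, at chr11:97699599-97699898 on the minus strand, is shown with its E-box in capitals. Both are written 5′ to 3′.
Kdm2b: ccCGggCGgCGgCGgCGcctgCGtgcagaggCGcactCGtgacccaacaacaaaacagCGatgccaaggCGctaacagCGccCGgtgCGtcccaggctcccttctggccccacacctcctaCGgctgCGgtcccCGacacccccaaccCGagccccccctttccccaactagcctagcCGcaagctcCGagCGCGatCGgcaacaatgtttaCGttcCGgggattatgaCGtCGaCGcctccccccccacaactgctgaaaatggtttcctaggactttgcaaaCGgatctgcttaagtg
Pcgf2: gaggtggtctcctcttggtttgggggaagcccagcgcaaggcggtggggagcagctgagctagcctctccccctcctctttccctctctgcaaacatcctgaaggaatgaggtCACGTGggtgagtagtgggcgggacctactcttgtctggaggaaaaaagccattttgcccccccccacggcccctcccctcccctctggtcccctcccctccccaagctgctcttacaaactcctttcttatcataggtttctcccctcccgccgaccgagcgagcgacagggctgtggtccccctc
Kdm2b, with no CACGTG in this window, fell with Max MO, whereas Pcgf2, with the motif, was at 0.585 to 3.47 TPM in the ICM libraries and did not pass the threshold. The presence or absence of these letters in a window says nothing about binding.

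Over the 56 CC and SCNT libraries, the genes whose log2 levels ran most like Pcgf6 were Nup214 (0.87), Rdh10 (0.87) and Tex12 (0.86), with Pearson's r across libraries in parentheses. For L3mbtl2 they were Med24 (0.80), BC026585 (0.79) and Pola2 (0.78), for E2f6 Rab40c (0.71), Snhg17 (0.69) and 1810032O08Rik (0.69), for Rnf2 Smc6 (0.82), Fbxo11 (0.82) and Katnbl1 (0.81) and for Kdm2b Kif23 (0.72), Fam175a (0.71) and Snrpd1 (0.69). None of these 15 genes is in either PRC1 list. The libraries share stage, depth and preparation, and the values are descriptions of likeness in this series.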

How the data were processed

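RNA-seq (Smart-seq) libraries of cumulus cells, SCNT embryos and fertilized blastocysts had been trimmed by the authors with cutadapt (1.16 in the submitters' processing notes), mapped to mm10 with HISAT2 and quantified with StringTie. The deposited tables, 1 per library, held gene-level coverage (a signal, read depth per base), FPKM and TPM, and no counts. TPM is recorded as a score because each deposited column listed loci assembled in that library, which sum to 1000000, and in addition 24421 annotated genes, so the column exceeds 1000000. Whether counting used strand is not given in the sources used here. The median ratio of coverage to FPKM, over annotated genes with an FPKM above 1, gave an estimate of aligned sequence per library. FPKM was not tested. Depth per gene is unknown without counts, so no counting interval was given.

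TPM was summed per gene symbol, and log2(TPM + 1) was fitted with limma 3.58.1 (R 4.3.3; lmFit and eBayes with trend) on genes with a mean of at least 1 TPM over the fitted libraries. Separate fits held the 53 SCNT libraries (9 groups, 11867 genes), these with CC (10 groups, 12084 genes), and the 12 MO libraries (6 groups, 11219 genes). p-values were Benjamini-Hochberg adjusted over all genes of a fit, and the threshold was 0.05 with 2-fold. Errors are SD for levels and SE for fold changes. The procedure was tested on simulated data. Groups and replicate numbers came from the labels. Tables and plots were made with Python 3.11.15, pandas 2.3.3, numpy 2.4.6 and matplotlib 3.10.9.

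The 10 members and the lists of 27 other PRC1 genes and of markers were chosen with earlier results of these data known. All members are named in every comparison, with Max and Mcrs1 as targets, at most the 4 other PRC1 genes with the largest change among those past the threshold, and the 3 genes most correlated with each of 5 members. Cbx1 was named beyond the 4 after its value was seen.

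Same-numbered libraries deviated together in every pair (r over 0.1 across genes) for 14 against 6 hpa (0.142 to 0.390) and for SCNT TE against ICM (0.131 to 0.30), and in no other comparison with 3 or more pairs. In each of these, only 2 of 6 libraries deviated most like the one of their own number. Alternatives were another pseudocount, filter, scaling and normalization, fits on the compared groups, a replicate block, libraries 1 to 3 or 4 to 6 alone, and leaving out libraries. Single libraries were left out only for 4C, CC, the MO experiment and L2C library 1, the last after the data were seen. Proteins were not analysed here.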

Additional observations from a re-analysis of the deposited data

Results flagged for a closer look

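In 7 of the 90 groups of a member and an SCNT stage, 1 library lay far from the others of its group by Dixon's test on the log2 scale, where chance gives about 1 in 20. At 14 hpa, library 1 held 955 TPM of Pcgf1 (others 1640.3 to 2127) and 53.2 TPM of Kdm2b (others 29.2 to 35.0), and library 5 held 0.0926 TPM of Pcgf2 where the others were listed at 0. At L2C, library 1 held 44.9 TPM of Pcgf1 (others 143 to 276) and library 2 held 1.2 TPM of Ring1 (others 0 to 0.212). In 8C library 1, Pcgf3 was at 0.0358 TPM (others 2.52 to 5.29), and in morula library 2, L3mbtl2 was at 39.7 TPM (others 6.98 to 11.6).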

How the results depend on the processing

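The 26 member differences past the threshold gave 431 values under the alternatives: 380 stayed past it, 51 lost it and 0 changed sign. Many alternatives left the compared libraries as they were, such as leaving out a 4C library for steps without 4C. These counts can therefore overstate how firm the calls are. Of the other PRC1 genes, at most the 4 largest calls of each comparison were followed, so weaker calls were left out. With the calls of the MO targets these made 41 calls and 712 values. Of the values, 114 lost the threshold and 1 changed sign, Rybp from morula to SCNT ICM (0.53 with libraries 4 to 6 alone). Most often lost among the 41 were Max under its MO in ICM (13 of 20), Hdac1 between control TE and ICM (13 of 20), Usp7 between the MOs in ICM (10 of 20) and Wdr5 from 4C to 8C (9 of 17). The larger moves in the number of members past the threshold, beside that of the full fit, were as follows. Smaller moves, such as between 3 and 2 or between 4 and 3, are left out except where a range is given. With libraries 4 to 6 alone it was 1 from 6 to 14 hpa (0), 1 at E2C (2), 5 at L2C (3) and 1 at 4C (2). With libraries 1 to 3 alone it was 1 at 4C (2), 1 in the morula (3), 1 from morula to TE (2) and 2 between SCNT TE and ICM (0). From morula to TE it was also 1 with a pseudocount of 0.1 or TPM rescaled over annotated genes. Between SCNT TE and ICM it was 1 after rescaling, with the replicate block, without SCNT ICM libraries 1 to 3 and without L2C library 1 (the last pair chosen after seeing the data). With Max MO in ICM it was 2 after rescaling (1), with L3mbtl2 beside Kdm2b. On the compared groups alone it was 0 for Max MO and 0 for Mcrs1 MO in ICM (1 each). With quantile normalization it was 0 for Max MO (1) and 0 for Mcrs1 MO (2) in TE, and without a filter it was 1 for the latter. Leaving out 1 library at a time gave 2 to 3 at L2C, 0 to 1 between SCNT TE and ICM, 1 to 3 for Max MO in ICM, 0 to 1 in TE, 0 to 2 for Mcrs1 MO in ICM, 0 to 2 in TE and 0 to 1 between control TE and ICM. Of the SCNT libraries, only those at 4C and L2C library 1 were left out singly, so none of the compared TE and ICM libraries was. In the MO experiment each such fit left 1 library in a group. The causes were not tested. Smaller moves of that kind aside, the replicate block changed no other count of members.

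Quantile normalization brought the median difference over all genes to within 0.1 of 0 in every comparison, from 0.12 at E2C, 0.26 at L2C, -0.33 at 4C, 0.20 in the morula, -0.16 in SCNT ICM, -0.28 from CC to 6 hpa, and -0.21 (Max MO, ICM), -0.19 (Max MO, TE) and -0.24 (Mcrs1 MO, TE). The share of calls that were higher went from 67.9% to 48.1% at L2C, 30.8% to 51.8% at 4C, 71.5% to 48.2% in the morula, 37.4% to 47.7% in SCNT ICM, 72.4% to 53.5% between SCNT TE and ICM, 36.5% to 52.6% with Max MO in ICM, 41.8% to 52.6% with Max MO in TE and 34.9% to 52.6% with Mcrs1 MO in TE. Groups of 2 libraries and levels near 1 TPM limit what could be detected.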
